A study of Mus musculus with 20 samples.

Results

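The difference between cigarette smoke and room air was examined here in lungs of mice that drank losartan throughout, by setting the 3 arrays of cigarette smoke with losartan (CS_Los) against the 3 arrays of room air with losartan (RA_Los). These are 6 of the 20 arrays of the series, and all of them belong to the batch the labels number 1. Whole lung RNA was measured on Illumina bead arrays, 1 array per sample. All mice were males of the inbred AKR/J strain and began the study at 6 to 8 weeks of age. Smoke was given for 2 h a day on 5 days a week, with carbon monoxide averaging 350 ppm, and the labels give its length as 6 to 7 weeks in the treatment protocol and as 2 months in the series description. Losartan was in the drinking water at 0.6 g/L in both CS_Los and RA_Los. Batch 1 also held 3 room air arrays without losartan (RA) and 3 smoke arrays without losartan (CS), and a second batch held 4 arrays each of RA and CS. Samples carry replicate numbers, but no label says that each came from its own animal, and the p-values then cover only the spread among the arrays.

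Losartan blocks the angiotensin II type 1 receptor, through which angiotensin II narrows vessels and promotes TGF-beta signalling, matrix turnover and inflammation. Cigarette smoke carries ligands of the aryl hydrocarbon receptor, which switches on Cyp1a1 and related genes, and oxidants that activate NRF2. In the lung, smoke also draws in neutrophils, granule-rich white cells whose S100a8 and S100a9 messages are abundant. Gene levels below are normalized log2 signals of the bead arrays, a difference is the CS_Los mean minus the RA_Los mean on that scale unless another pair is named, and ± gives the standard error of limma's fit over the 12 arrays of batch 1.

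The smoke markers did not follow the labels on every losartan array, which touches each difference between the groups. Cyp1a1 (probe 7380437), a direct target of the aryl hydrocarbon receptor, gave 7.97 on CS_Los 1 but 4.27 on CS_Los 2 and 4.54 on CS_Los 3. On RA_Los 1 to 3 it gave 4.32, 5.22 and 4.65. It was detected above the negative-control beads on 1 of the 3 arrays in each group, so only CS_Los 1 carried a high Cyp1a1 signal, against 5.62 to 7.48 on the CS arrays. The array labelled CS_Los 2 had its highest correlations over all features with RA 2 (Pearson r = 0.988), RA 1 (0.987) and RA_Los 1 (0.986). Its correlations with CS_Los 1 and CS_Los 3 were 0.976 and 0.973. For CS_Los 1 the highest was with CS 3 (0.9885). CS_Los 1 and CS_Los 3 correlated less still with each other (0.9695), and CS_Los 3 had its highest correlation with RA_Los 2 (0.978). The CS_Los arrays were thus unlike each other, and CS_Los 2 was not alone in this. The RA_Los arrays were likewise unlike each other. RA_Los 1 correlated with RA_Los 2 and RA_Los 3 at 0.9791 and 0.9676, and RA_Los 2 with RA_Los 3 at 0.9731. Whether the array labelled CS_Los 2 holds the sample that its label names cannot be settled from these values. Differences are also given without CS_Los 2 where it moved them. RA_Los 3 also stood apart in single genes. Myl7, an atrial muscle gene, gave 5.83 there against 12.29 and 11.77 on RA_Los 1 and 2. Scgb3a1, a secretory airway gene, gave 8.05 there against 12.45 and 13.54. The median spread within a group was an SD of 0.259 in CS_Los and 0.227 in RA_Los, against 0.166 in RA and 0.183 in CS. Lung identity itself was clear on all 6 arrays, where surfactant gene Sftpc lay between 14.37 and 14.79 and club cell gene Scgb1a1 between 14.76 and 15.13. Median probe signals on these arrays ran from 57.2 to 72.3 and detected probes from 14162 to 15155.

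Promoters of 4 genes are printed as RefSeq gives them (GRCm38.p6, 300 bases around a start site), because arrays of the same losartan group differed in targets of the dioxin receptor, clock and heat shock pathways, and because Tiparp, like Cyp1a1 a target of that receptor, separated the groups. Capitals mark the letters searched on both strands: GCGTG, the core of the aryl hydrocarbon receptor element, in Cyp1a1 (chr9:57697363-57697662, plus strand) and, as its reverse complement, in Tiparp (chr3:65528197-65528496, plus strand). In the first of the Per1 windows (chr11:69098699-69098998, plus strand) they mark CACGTG, the E-box of the clock factors, and in Hspa1a (chr17:34972107-34972406, minus strand) GAANNTTC, a heat shock element.
Cyp1a1: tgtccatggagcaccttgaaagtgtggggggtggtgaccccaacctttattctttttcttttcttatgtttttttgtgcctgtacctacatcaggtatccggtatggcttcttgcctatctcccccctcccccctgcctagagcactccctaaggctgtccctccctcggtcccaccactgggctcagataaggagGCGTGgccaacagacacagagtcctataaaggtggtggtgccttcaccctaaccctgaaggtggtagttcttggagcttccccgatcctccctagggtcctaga
Tiparp: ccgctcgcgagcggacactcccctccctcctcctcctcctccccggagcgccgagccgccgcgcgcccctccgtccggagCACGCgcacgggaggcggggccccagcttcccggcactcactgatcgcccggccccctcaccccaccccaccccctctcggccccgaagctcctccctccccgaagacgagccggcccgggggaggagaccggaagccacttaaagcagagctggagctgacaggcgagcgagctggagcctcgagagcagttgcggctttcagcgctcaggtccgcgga
Per1: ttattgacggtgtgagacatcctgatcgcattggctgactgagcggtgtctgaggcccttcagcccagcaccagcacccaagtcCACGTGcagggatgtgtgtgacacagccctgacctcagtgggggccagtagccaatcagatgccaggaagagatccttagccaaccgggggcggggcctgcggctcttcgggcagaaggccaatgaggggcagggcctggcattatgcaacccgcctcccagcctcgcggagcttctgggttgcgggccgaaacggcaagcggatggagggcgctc
Hspa1a: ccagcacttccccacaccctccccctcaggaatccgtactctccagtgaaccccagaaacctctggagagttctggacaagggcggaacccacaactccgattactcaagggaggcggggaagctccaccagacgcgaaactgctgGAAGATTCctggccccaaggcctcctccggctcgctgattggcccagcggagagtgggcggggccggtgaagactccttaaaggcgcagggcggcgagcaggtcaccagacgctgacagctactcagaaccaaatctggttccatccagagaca
Of all 32851 mouse promoter windows of this length, 32.4% held GCGTG, 7.15% CACGTG and 7.86% GAANNTTC, so a match is a description of these letters and not a measured site. The windows of Dbp and Nr1d1 and the second of Per1 held 0 matches to CACGTG, and both windows of the chaperone gene Dnajb1 held 0 to GAANNTTC.

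No feature passed the test between CS_Los and RA_Los. Of 12719 features tested with limma, 0 had a Benjamini-Hochberg adjusted p under 0.05 (0%), and the smallest adjusted p was 0.624. At an unadjusted p under 0.05 there were 680 (5.35%), of which 326 were higher in CS_Los (2.56%) and 354 lower (2.78%). Without the array labelled CS_Los 2, 0 were called and 1045 had an unadjusted p under 0.05 (8.22%). The 2 groups did not overlap for 1004 features (7.89%), 502 in each direction (3.95%). In the same fit CS against RA gave 1 called feature (0.00786%), 998 at an unadjusted p under 0.05 (7.85%) and 2542 without overlap (20%). Of the features without overlap, 54 were so in the same direction in both comparisons, which is 5.38% of the losartan set and 2.12% of the CS and RA set. Another 88 were apart in opposite directions, or 8.76% and 3.46%. Over all features the Pearson correlation of both differences was 0.00841, and 0.219 with the array labelled CS_Los 2 left out. These comparisons share no arrays, but features are not independent of each other, so the correlations describe these arrays only. No CS_Los minus RA_Los difference named from here on passed limma's adjusted threshold in the fit over batch 1, and the values are given as measured. The medians of 15 of the 32 gene lists kept their sign with any 1 of the 6 losartan arrays left out, and those of 17 did not.

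Neutrophil genes had the highest median difference of the gene groups examined. S100a8 (probe 1190546), a calcium-binding protein of neutrophils, gave 9.59, 10.49 and 10.38 on RA_Los 1 to 3 and 12.70, 12.24 and 10.76 on CS_Los 1 to 3. All CS_Los arrays were above all RA_Los arrays, CS_Los 3 by little. The difference was 1.74 ± 0.469 (unadjusted p = 0.00258 by limma), and CS minus RA was 1.24 in batch 1. Its partner S100a9 gave 9.23, 9.81 and 10.05 against 11.57, 12.01 and 9.97, a difference of 1.49 ± 0.412, with CS_Los 3 inside the RA_Los range. Retnlg (probe 7160711), a resistin-like gene of myeloid cells, read 5.69, 6.06 and 5.96 in RA_Los and 8.43, 7.43 and 6.62 in CS_Los. These groups did not overlap, and the difference of 1.59 ± 0.351 had an unadjusted p of 0.000575 and an adjusted p of 0.679 by limma. Mmp8, the neutrophil collagenase, was detected on 0 RA_Los arrays and on CS_Los 1 and 2 (6.32 and 6.36), a mean at least 1.89-fold higher in CS_Los. On CS_Los 3 it was not detected, and its 4.87 there lay inside the RA_Los range. Mmp9, the gelatinase of neutrophils and macrophages, gave 7.86, 7.93 and 7.90 against 8.73, 8.55 and 8.02, without overlap and with a difference of 0.54 ± 0.223.

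Over the neutrophil list, 15 of 20 genes were measured, 13 had a positive difference, 5 an unadjusted p under 0.05 in the higher direction (2.56% of all features) and 0 in the lower one, and 4 were apart and higher (3.95% of all features). The median difference of the list was 0.57, against -0.01 over all features. It was 0.65 without the array labelled CS_Los 2, 0.54 to 0.80 with any 1 losartan array left out, and 0.82 for CS minus RA in batch 1. The mean of the list relative to the RA arrays was 0.38, 0.66 and 0.34 on RA_Los 1 to 3 and 1.37, 1.32 and 0.85 on CS_Los 1 to 3. CS_Los 2 was thus high for these genes although it was low for Cyp1a1. The granule genes differed among themselves. Lcn2, lipocalin 2, which airway epithelium also makes, read 9.39, 9.94 and 10.26 in RA_Los and 11.33, 10.10 and 10.76 in CS_Los (0.87 ± 0.409), with CS_Los 2 inside the RA_Los range. Camp, an antimicrobial peptide, was not detected on any of the 6 arrays, and Elane, neutrophil elastase, differed by -0.07 ± 0.248. Cd177, a surface antigen of neutrophils, differed by 0.57 ± 0.433 here and by 2.66 in CS minus RA of batch 1 (interaction unadjusted p = 0.00463 by limma). In whole lung, more cells of a type and more RNA per cell cannot be told apart.

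**Figure D1:**
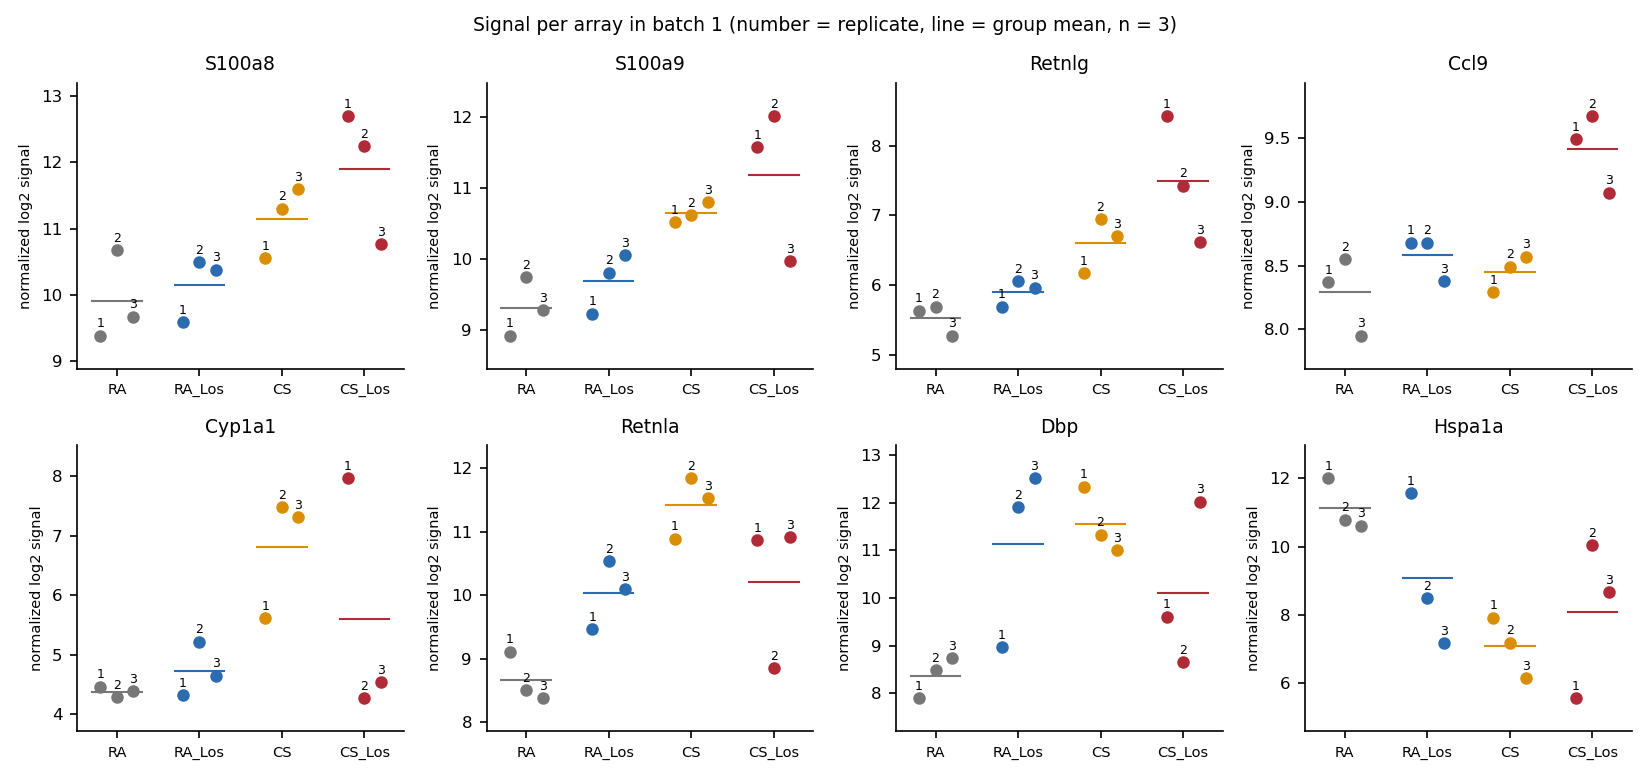
Normalized log2 signal (vertical axis) of 8 genes on each of the 12 arrays of batch 1, grouped on the horizontal axis. Points are arrays numbered by replicate and lines are group means (n = 3). Retnlg and Ccl9 separate RA_Los from CS_Los, whereas for Cyp1a1 the array CS_Los 1 (7.97) lies apart from CS_Los 2 and 3 (4.27 and 4.54).

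Of the chemokine and cytokine list, 36 of 43 genes were measured, with a median difference of 0.16 (0.13 to 0.23 with 1 losartan array left out) and a positive difference in 28. At an unadjusted p under 0.05, 6 members were higher (2.56% of all features) and 0 lower, and 7 were apart and higher (3.95% of all features). Ccl9 (probe 7050538), which attracts myeloid cells, gave 8.68, 8.68 and 8.38 on the RA_Los arrays and 9.49, 9.67 and 9.07 on the CS_Los arrays. No CS_Los array reached down to the RA_Los range, and the difference was 0.83 ± 0.197 (unadjusted p = 0.00106, adjusted p = 0.679 by limma). CS minus RA was 0.16 for this gene, and the interaction was 0.67 (unadjusted p = 0.0324). Ccl5, a lymphocyte attractant, read 7.66, 8.66 and 8.54 against 9.05, 9.17 and 8.85, a difference of 0.74 ± 0.286. The B cell attractant Cxcl13 read 7.26, 7.64 and 6.02 against 7.81, 7.77 and 7.92. Both sets of groups were apart, with the low end of RA_Los set by 1 array. Il1b, the inflammasome cytokine, differed by 1.27 ± 0.489, of which CS_Los 2 (10.19) gave the largest part, and by 0.61 without that array. Cxcl1, a neutrophil attractant, was not higher in CS_Los than in RA_Los (difference -0.47 ± 0.304), whereas CS minus RA was 1.47 (interaction unadjusted p = 0.000586 by limma). Its mean was 6.462 in RA, 8.244 in RA_Los, 7.931 in CS and 7.771 in CS_Los, so the room air level was higher with losartan. Cxcl5, another of these attractants, differed by 0.26 ± 0.568 and by 2.02 in CS minus RA. Its means were 6.138 in RA, 7.577 in RA_Los (5.81 on RA_Los 3), 8.155 in CS and 7.837 in CS_Los.

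Genes of antigen presentation were among those with the highest statistics. H2-DMa (probe 870154), which helps load peptides on MHC class II, gave 9.17, 8.89 and 8.94 in RA_Los and 9.76, 9.76 and 9.49 in CS_Los. The groups were apart by 0.67 ± 0.17 (unadjusted p = 0.00172), and CS minus RA was -0.25 (interaction unadjusted p = 0.00216). The invariant chain Cd74 read 12.39, 12.11 and 12.50 against 12.90, 12.91 and 12.75, a difference of 0.52 ± 0.185. H2-Ab1, a class II beta chain, differed by 0.53 ± 0.204 and without overlap. Batf3, a transcription factor of cross-presenting dendritic cells, differed by 0.88 ± 0.213, also without overlap. Of 14 measured members of this list of 16, 4 were higher at an unadjusted p under 0.05 (2.56% of all features), 0 lower and 4 apart and higher (3.95% of all features), and 12 had a positive difference. The list median was 0.24, between 0.14 (without RA_Los 2) and 0.39 with 1 losartan array left out, and -0.10 for CS minus RA in batch 1. The dendritic cell gene Clec9a, at -0.004 ± 0.252, and Ccr7, at -0.33 ± 0.232, were not higher. Of the 14 members, 5 had an interaction unadjusted p under 0.05, against 7.17% of all features.

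Interferon-response genes had a median of 0.23 over 18 measured members, which became 0.09 without the array labelled CS_Los 2. Oasl1, an interferon-induced regulator of translation, read 5.24, 4.92 and 5.40 in RA_Los and 6.45, 6.67 and 5.57 in CS_Los (1.04 ± 0.289, groups apart). Igtp, an interferon-gamma-induced GTPase, owed its difference of 0.70 ± 0.384 to CS_Los 2, where it gave 10.31 against 8.54 and 8.52 on the others. It differed by 0.10 without that array. T and NK cell genes had a median of 0.21 over 18 members (0.12 to 0.36 with 1 losartan array left out). Ncr1, an NK receptor, read 5.2, 5.87 and 5.48 against 7.34, 6.14 and 5.74, a difference of 0.89 ± 0.334 with overlap that was 0.42 without CS_Los 1. B cell genes had a median of 0.18 over 13, which was -0.22 without CS_Los 1, 0.007 without RA_Los 1 and 0.57 without CS_Los 2. Blk, a B cell kinase, was detected on 0 RA_Los and 3 CS_Los arrays (at least 1.51-fold higher). The lowest B cell gene, Ms4a1, differed by -0.27 ± 0.211, and 9 of the 13 had a positive difference. Monocyte genes had a median of 0.25 and alveolar macrophage genes one of 0.20, with Cd14 (0.47 ± 0.196) and the lipid-droplet gene Plin2 (0.54 ± 0.238) as their highest members. Their lowest members were C1qa (-0.51 ± 0.252) and Mmp12 (-0.10 ± 0.177). Positive differences were found in 8 of 10 and in 11 of 14 members.

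**Figure D2:**
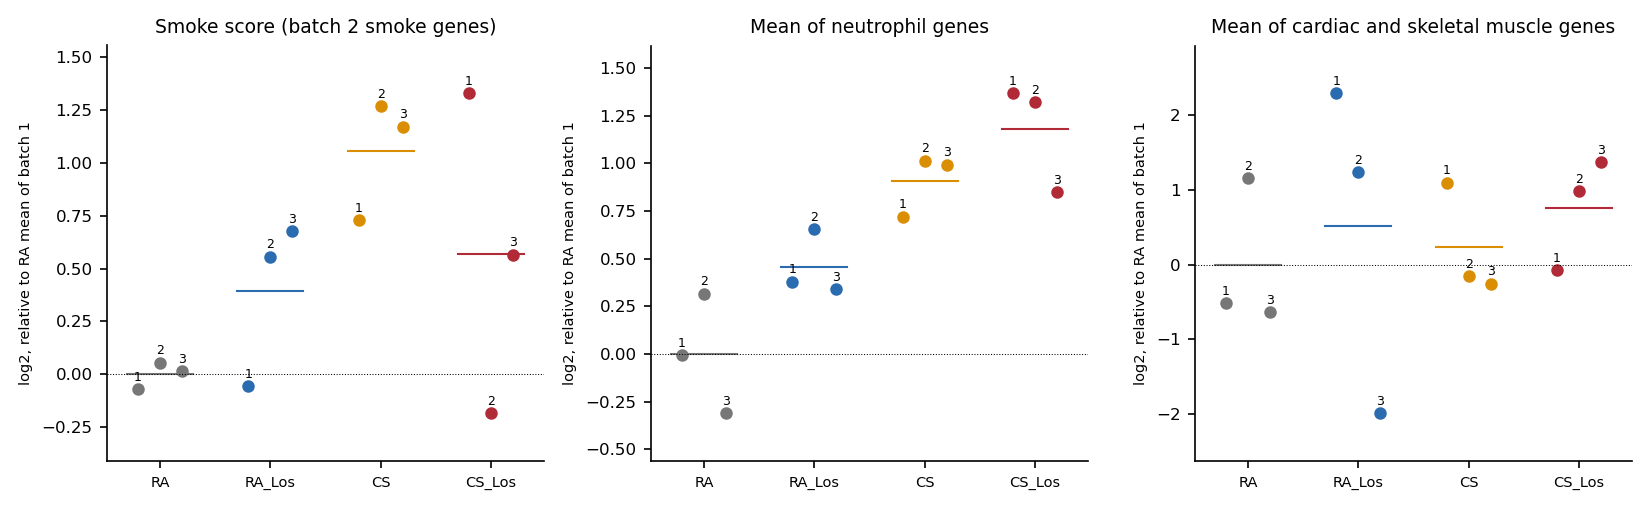
Log2 values relative to the RA mean (vertical axes) on each array of batch 1: the smoke score of genes called in batch 2, the mean of 15 neutrophil genes and the mean of 23 cardiac and skeletal muscle genes. Points are arrays numbered by replicate and lines are group means. The neutrophil means of CS_Los (0.85 to 1.37) lie above those of RA_Los (0.34 to 0.66), while the smoke scores of both losartan groups overlap.

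The genes with the highest statistics beyond these lists were mostly of modest size and of varied function. Sars2, the mitochondrial seryl-tRNA synthetase, gave 5.13, 4.83 and 4.71 in RA_Los and 5.61, 5.67 and 5.51 in CS_Los, a difference of 0.71 ± 0.151. Cdk2ap2, a CDK2-associated protein, gave 9.00, 8.79 and 8.93 against 9.66, 9.61 and 9.59 (0.71 ± 0.167), and CS minus RA was -0.27. Both were apart with tight CS_Los arrays. Sars2 was detected on 1 RA_Los array and 3 CS_Los arrays. Lilr4b (probe 4120356), an inhibitory receptor of myeloid cells, was detected on 0 RA_Los and 3 CS_Los arrays (6.28, 5.32 and 5.75) and was at least 1.80-fold higher in CS_Los. Slc35e4, a gene of the nucleotide-sugar transporter family, was detected on 0 RA_Los and 2 CS_Los arrays and was at least 1.17-fold higher in CS_Los. The small GTPase gene Rhog differed by 0.58 ± 0.144 and the ribosome-assembly gene Wdr46 by 0.50 ± 0.127, with CS minus RA of -0.17 and -0.05. Of these, Wdr46 was detected on 1 RA_Los array and 3 CS_Los arrays.

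The 10 genes with the lowest statistics were likewise of varied function. Mpp5 (probe 840685), the polarity scaffold also called Pals1, gave 7.96, 8.02 and 7.99 in RA_Los and 6.96, 7.22 and 6.63 in CS_Los. The groups were apart by -1.05 ± 0.177, which had the smallest p of the comparison (unadjusted p = 4.9e-05, adjusted p = 0.624 by limma). Lima1 (probe 5910022), an actin-bundling protein, gave 10.23, 10.46 and 10.24 against 9.46, 9.56 and 8.96 (-0.98 ± 0.177, adjusted p = 0.627). CS minus RA was 0.23 for Lima1, and with all 20 arrays and batch in the fit it was the 1 feature called (adjusted p = 0.0332). The katanin-like gene Katnal1, which concerns microtubule severing, differed by -0.88 ± 0.195, and Pgm5, a protein of muscle adhesion sites, by -0.97 ± 0.226. In CS minus RA of batch 1 they had the opposite sign, at 0.56 and 0.63. In batch 2 Katnal1 was called and lower in CS (-0.47, adjusted p = 0.0137 by limma), the sign it had under losartan, and Pgm5 was at 0.36. Xiap, an inhibitor of caspases, differed by -1.09 ± 0.244, and Cdc25a, a phosphatase that promotes cell cycle entry, by -0.68 ± 0.161. Zc3h13, a subunit of the RNA m6A writer complex, differed by -1.31 ± 0.293, the RAP exchange factor gene Rapgef5 by -0.68 ± 0.16, and Fam199x and Zfp873 by -1.07 ± 0.219 and -0.55 ± 0.126.

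**Figure D3:**
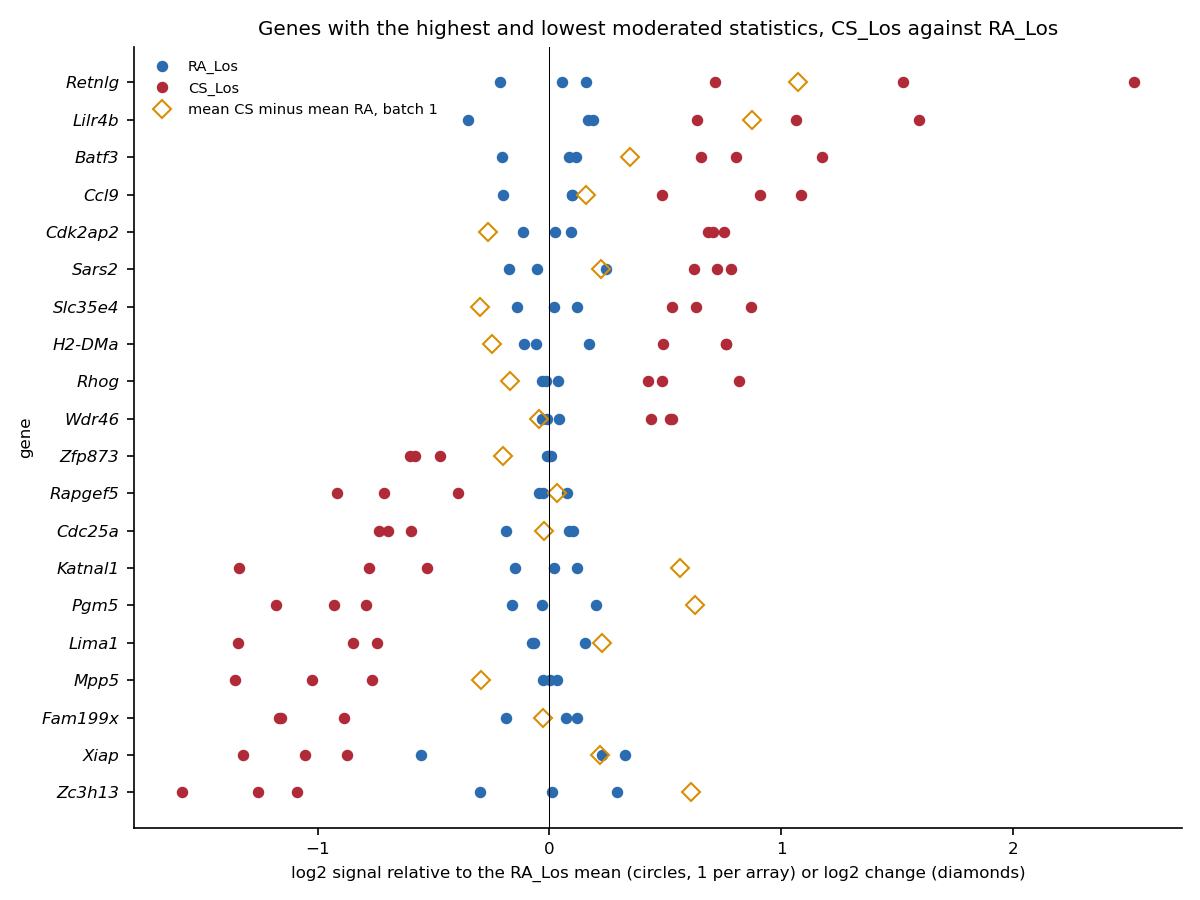
Log2 signal relative to the RA_Los mean (horizontal axis) of the 10 genes with the highest and the 10 with the lowest moderated statistics, 1 circle per array. Open diamonds give mean CS minus mean RA of batch 1. All 20 genes have non-overlapping losartan groups, none passed the adjusted threshold, and for several, among them Pgm5 (0.63) and Zc3h13 (0.61), the diamond lies on the other side of 0.

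Structural and matrix genes gave few differences. Myocd (probe 6760673), the coactivator of smooth muscle genes, read 7.12, 6.76 and 6.41 in RA_Los and 5.54, 5.93 and 5.49 in CS_Los. Its groups were apart by -1.11 ± 0.267, and the list of smooth muscle and mesenchymal genes had a median of -0.02 over 19 members. Clic5, a chloride channel protein of alveolar type I cells, differed by -0.58 ± 0.202, and that list had a median of -0.12 over 12. The elastin gene Eln (probe 6960079) gave 9.84, 8.52 and 8.70 against 9.99, 10.32 and 9.26, with RA_Los 1 inside the CS_Los range. Its difference was 0.84 ± 0.341, CS minus RA was -0.85, and the interaction was 1.69 (unadjusted p = 0.00392, adjusted p = 0.542 by limma). The elastic fibre list as a whole had a median of 0.05 over 13 members, collagen and matrix genes one of 0.05 over 22 and proteases and their inhibitors one of 0.02 over 27. Mmp12, the macrophage elastase, differed by -0.10 ± 0.177 and the protease inhibitor Timp1 by 0.25 ± 0.159.

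Of 12 measured renin-angiotensin genes, 2 were apart and higher (3.95% of all features). Of these, 1 had an unadjusted p under 0.05 (2.56% of all features in that direction). Such small counts do not set the list apart from all features. Agtr1a, the receptor that losartan blocks, gave 7.42, 7.29 and 7.10 in RA_Los and 7.73, 7.56 and 7.56 in CS_Los. The groups were apart by 0.35 ± 0.185 (unadjusted p = 0.0845). Agtr1b, its paralogue, differed by 0.05 ± 0.207 but was detected on 0 RA_Los and 0 CS_Los arrays. Ace, the angiotensin-converting enzyme, read 5.5, 6.64 and 6.81 against 5.97, 5.37 and 5.87 (-0.58 ± 0.282), with RA_Los 1 inside the CS_Los range. Cma1, a mast cell chymase that can form angiotensin II, was detected on 0 RA_Los and 2 CS_Los arrays (at least 1.13-fold higher). TGF-beta genes had a median of -0.06 over 30 measured members, with 0 past an unadjusted p of 0.05 in either direction. Among them Tgfb1 itself differed by 0.24 ± 0.201 and its matricellular target Ccn2 by -0.17 ± 0.152.

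As lists, xenobiotic and antioxidant genes differed little between CS_Los and RA_Los, and Cyp1a1 was high on CS_Los 1 alone. For Cyp1a1 the mean difference was 0.86 ± 0.764 (adjusted p = 0.984 by limma), which rested on CS_Los 1. CS minus RA was 2.42. Tiparp (probe 6650767), an aryl hydrocarbon receptor target that represses the receptor, went the other way: it gave 5.58, 5.31 and 5.72 in RA_Los and was detected on 0 CS_Los arrays (at least 1.48-fold lower). Cyp1b1, a further target, differed by 0.03 ± 0.256 and by 0.93 in CS minus RA. The list of 13 measured targets had a median of -0.03, with 1 higher and 1 lower at an unadjusted p under 0.05 (2.56% and 2.78% of all features). Of 33 measured NRF2 antioxidant genes, Gstp1, a glutathione transferase, alone passed an unadjusted p of 0.05 (0.53 ± 0.204), as did 5.35% of all features. The median of that list was -0.01 against 0.16 in CS minus RA. Nqo1 differed by -0.20 ± 0.218, Gclc by -0.40 ± 0.212 and Hmox1 by 0.16 ± 0.429.

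The difference between CS and RA in batch 2 was followed, so that no gene was chosen on these arrays. It held 701 called features (5.51% of those tested), 308 higher in CS (2.42%) and 393 lower (3.09%). In CS_Los minus RA_Los, 432 of them (61.6%) had the sign of batch 2, against 54.8% of all features. In CS minus RA of batch 1 it was 672 (95.9%, against 68.8% of all features). The median difference in the smoke direction was 0.0642 under losartan, 0.443 in CS minus RA of batch 1 and 0.547 in batch 2. At an unadjusted p under 0.05, 25 of the 701 had the sign of batch 2 and 6 the opposite. Together these were no larger a share than the 5.35% of all features past that threshold. Without the array labelled CS_Los 2 the share was 84.9% (all features 61.1%) and the median 0.258. Without CS_Los 1 it was 33.1% and -0.104, and without RA_Los 1 it was 45.1% and -0.0334. The smoke score, the mean of the higher genes minus that of the lower ones relative to RA, was -0.06, 0.56 and 0.68 on RA_Los 1 to 3 and 1.33, -0.18 and 0.57 on CS_Los 1 to 3. Only CS_Los 1 exceeded every RA_Los array, RA_Los 2 and 3 were above all RA arrays (-0.07 to 0.06), and the score was 0.73 to 1.27 on the CS arrays. Clock and heat shock genes were among the 701. In batch 2, CS minus RA was -4.38 for Hspa1a, -2.07 for Per2, 2.16 for Dbp and 2.02 for Nr1d1. RA_Los 1 and CS_Los 2 had the lowest scores of the losartan arrays. They also had the highest Hspa1a (11.57 and 10.05) and the lowest Dbp (8.97 and 8.66). The part of these genes in the score was not tested.

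**Figure D4:**
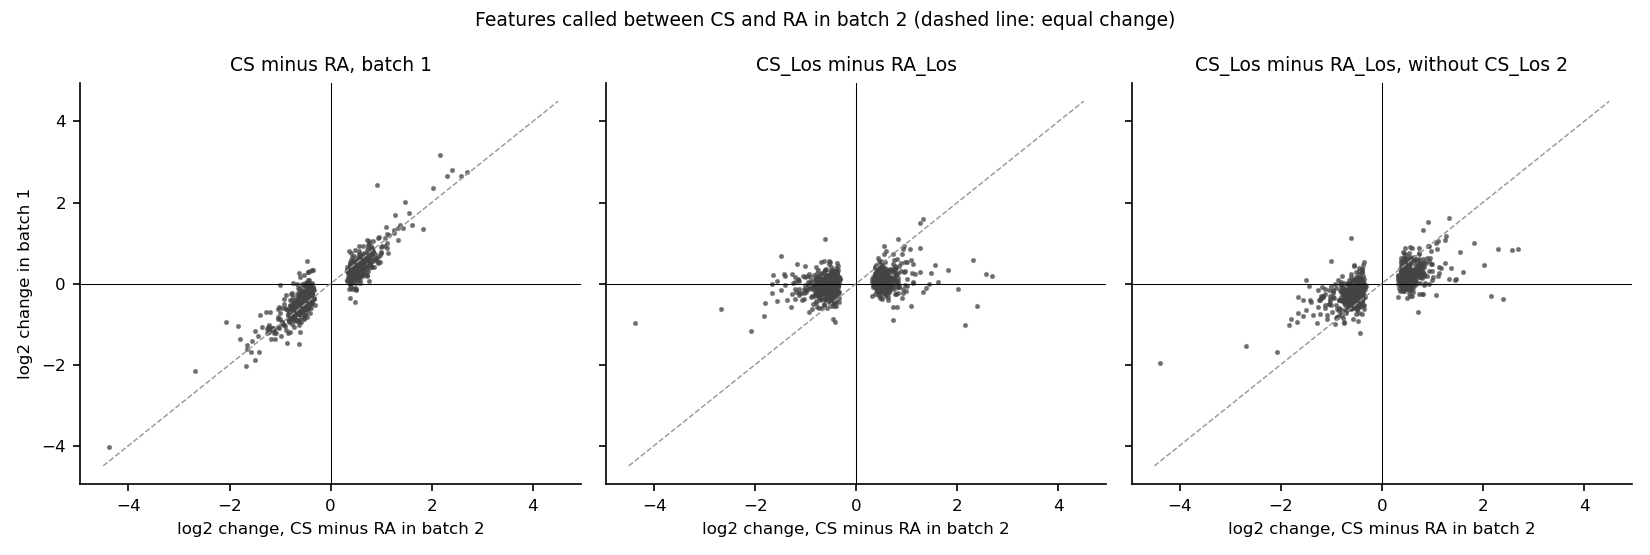
Log2 difference in batch 1 (vertical axes) against CS minus RA in batch 2 (horizontal axes), 1 point for each of the 701 features called in batch 2. The panels show CS minus RA of batch 1 (Pearson r = 0.928), CS_Los minus RA_Los (0.338) and the same without the array labelled CS_Los 2 (0.725). The coefficient was -0.345 without CS_Los 1 and -0.0835 without RA_Los 1, which are not drawn.

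The genes highest in CS of batch 2 show the split between arrays. Retnla, a resistin-like gene of alternatively activated macrophages and airway epithelium, gave 9.46, 10.53 and 10.09 in RA_Los and 10.87, 8.85 and 10.91 in CS_Los. CS_Los 2 was below all RA_Los arrays and the other two were above them, and the difference was 0.18 ± 0.475, or 0.86 without CS_Los 2. CS minus RA was 2.76 (interaction unadjusted p = 0.00208). Saa3, an acute-phase gene, differed by 0.25 ± 0.445 (2.64 in CS minus RA), and Tff2, a mucosal trefoil peptide, by -0.56 ± 0.782 (2.79). Of the 701, Lilr4b and Retnlg had the smallest p under losartan. Chosen after their values were seen, Pla2g7, a platelet-activating factor hydrolase, gave 0.62 here and 0.84 in CS minus RA, and Edn1, which encodes the vasoconstrictor endothelin, gave -0.62 and -0.29, both with groups apart. Ms4a8a, also chosen after its values were seen, went the other way at 1.10 here against -0.75.

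Clock, heat shock, muscle and blood genes varied widely among the losartan arrays. Dbp, a clock output gene, gave 8.97, 11.91 and 12.51 on RA_Los 1 to 3 and 9.61, 8.66 and 12.02 on CS_Los 1 to 3. RA_Los 1 was low with CS_Los 1 and 2, so the groups overlapped (-1.03 ± 0.871, against 3.18 in CS minus RA). Arntl, a core activator of the clock, was high on RA_Los 1 (8.85), CS_Los 1 (9.03) and CS_Los 2 (9.51) and between 5.23 and 5.84 on the other 3. Per1 and Per2, the period repressors, were lowest on CS_Los 1, at 7.01 and 7.86, and no lower than 9.55 and 10.81 on the other arrays. The clock list had a median of -0.55 over 17 members, or -0.14 without CS_Los 1, with 3 positive and 0 at an unadjusted p under 0.05. The chaperone gene Hspa1a gave 11.57, 8.49 and 7.17 against 5.57, 10.05 and 8.66 (-0.98 ± 1.10), and the heat shock list had a median of -0.14 over 30, against -0.58 in CS minus RA. That median was -0.40 without CS_Los 2, 0.18 without CS_Los 1 and 0.06 without RA_Los 1. Glucocorticoid-induced genes had a median of -0.03 over 17 (-0.28 without CS_Los 2 and 0.26 without CS_Los 1), against -0.72. The sets of arrays with low Dbp and high Hspa1a were not those of the smoke label, and the part of these genes in the other differences was not tested.

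**Figure D5:**
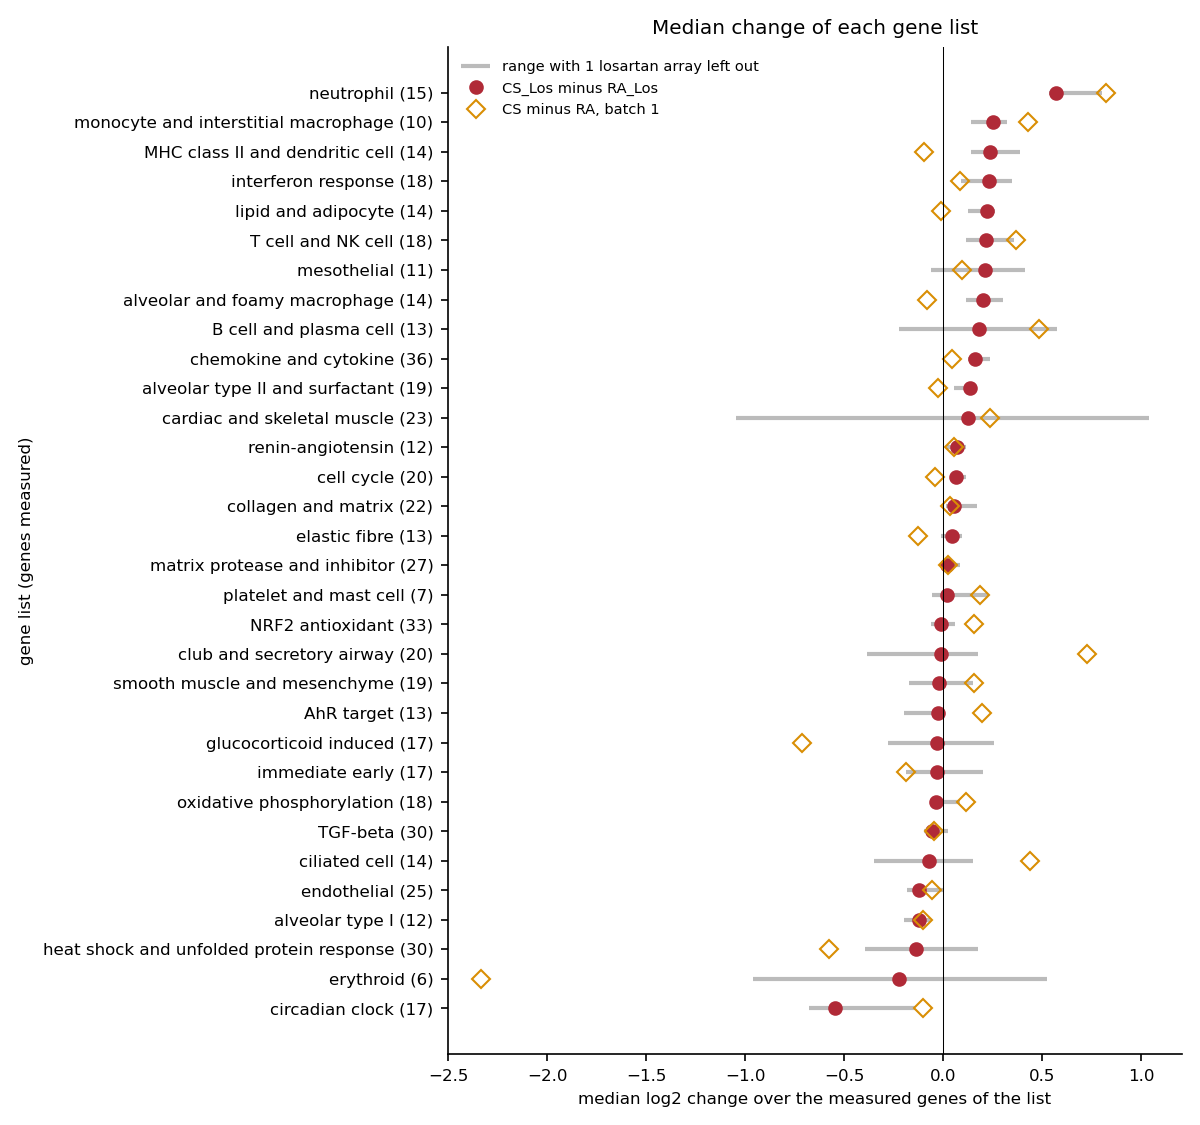
Median log2 difference (horizontal axis) over the measured genes of each list (vertical axis, number measured in parentheses). Filled circles are CS_Los minus RA_Los, grey bars their range when 1 losartan array is left out, and open diamonds CS minus RA of batch 1. Neutrophil genes (0.57) have the highest circle and the clock list (-0.55, or -0.14 without CS_Los 1) the lowest, and the cardiac and skeletal muscle bar is the widest.

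Airway and muscle content also differed between arrays of one group. Cardiac and skeletal muscle genes averaged 2.29, 1.24 and -1.99 relative to RA on RA_Los 1 to 3 and -0.08, 0.98 and 1.38 on CS_Los 1 to 3. Club and secretory genes averaged 1.41, 2.02 and -0.20 on RA_Los 1 to 3 and 0.67, 0.71 and 2.00 on CS_Los 1 to 3. Both lists overlapped between the groups, with medians of 0.13 over 23 and -0.01 over 20, and CS minus RA of batch 1 had a median of 0.73 for the club genes. Ciliated cell genes had a median of -0.07 over 14, alveolar type II genes one of 0.14 over 19, and endothelial genes one of -0.12 over 25. Haemoglobin gene Hba-a1 gave 13.72, 11.75 and 10.23 against 11.68, 13.15 and 12.42, and the 6 measured erythroid genes had a median of -0.22 against -2.33 in CS minus RA. Oxidative phosphorylation (-0.04 over 18), cell cycle (0.06 over 20), lipid genes (0.22 over 14), mesothelial genes (0.21 over 11), platelet and mast cell genes (0.02 over 7), immediate early genes (-0.03 over 17) and the renin-angiotensin list (0.07 over 12) were the remaining lists, each with at most 2 members at an unadjusted p under 0.05 (5.35% of all features). Of the 17 immediate early genes, 2 were lower at that threshold (2.78% of all features) and 0 higher. Of the same 17, 3 were apart and lower (3.95% of all features) and 0 apart and higher. Of the 14 lipid genes, 3 were apart and higher (3.95% of all features) and 0 apart and lower.

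Whether smoke acted differently with and without losartan was tested by the interaction, CS_Los minus RA_Los less CS minus RA. With limma 0 of 12719 features passed (0%), the smallest adjusted p was 0.517, and 912 had an unadjusted p under 0.05 (7.17%). The smallest p belonged to Cygb, cytoglobin, a haem protein of fibroblasts. It gave 8.89, 9.32 and 8.92 in RA_Los and 8.34, 8.26 and 8.52 in CS_Los, a difference of -0.67 ± 0.174 with the groups apart, against 0.80 in CS minus RA of batch 1 (interaction -1.47, unadjusted p = 4.77e-05). CS minus RA of batch 2 was 0.04 for Cygb. Reg3b, an antibacterial lectin, had the interaction of the highest statistic (1.42), with -0.29 ± 0.2 under losartan against -1.71 in CS minus RA. It was detected on the 3 RA arrays and on 0 arrays each of RA_Los, CS_Los and CS. The -0.29 is thus a difference between signals not detected above the negative-control beads. That -1.71 was the 1 call of CS against RA in batch 1 (adjusted p = 0.0139 by limma), and batch 2 gave 0.007. Bcan, a proteoglycan, had 0.12 ± 0.197 against -1.19 (-0.80 in batch 2), and was detected on 0 CS arrays of batch 1. Pofut2, a protein O-fucosyltransferase, had 0.39 ± 0.14 against -0.53 (-0.001 in batch 2). Znhit6, a factor of small nucleolar particle assembly, had -0.65 ± 0.261 against 1.18 (0.42 in batch 2). The median standard error of an interaction was 0.28, and that of CS_Los minus RA_Los was 0.198.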

How the data were processed

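Probe intensities of 20 Illumina arrays were deposited before normalization, per the file headers, and the submitters' processing notes name BeadStudio (version not given). Detection p-values were also deposited, which BeadStudio derives for a probe from the negative-control beads on the same array. The deposited log2 values of a second table by the authors equal the log2 intensity shifted to a median of 8 on each array (largest difference 0.00694) and served as an alternative. A background subtraction by the authors is not stated in these sources.

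Intensities were corrected with limma's nec (offset 16, from the detection p-values), quantile normalized over all 20 arrays and taken to log2 (R 4.3.3, limma 3.58.1). Of 25697 probes, 17012 (66.2%) had a detection p under 0.05 on 3 arrays or more and were kept. The platform annotation names 23141 probes with 1 gene symbol, 0 with several and 2556 with none. The brightest kept probe of each gene and the unnamed probes gave 11196 genes and 1523 unnamed features. The number of arrays limits the precision.

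The 4 groups of batch 1 (3 arrays each) were fitted together with lmFit and eBayes (8 residual degrees of freedom), with a contrast of CS_Los with RA_Los and the interaction, and Benjamini-Hochberg adjustment over all 12719 features. Batch 2 was fitted alone. "At least" folds set the brighter group's mean against a floor in the dimmer group (on each array, the lowest signal among detected probes, or the probe's own signal where that is higher). The brighter mean includes arrays on which the probe was not detected. The script was tested on simulated data. CS_Los arrays are titled 7 to 9 and numbered 1 to 3 in their descriptions. Same-numbered RA_Los and CS_Los arrays deviated with correlations of -0.308, -0.244 and -0.075, so the numbers were not taken as pairs.

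Named genes are the 10 highest and 10 lowest moderated statistics, 5 each way for the interaction, the 10 highest and 10 lowest calls of batch 2, the highest and lowest member of each of the 32 gene lists, and genes of the study question. List members at an unadjusted p under 0.05 or with groups apart, and other list members given for contrast, were added after seeing the values. The members and lists were chosen with earlier results of these data known. The probes of Agt and Agtr2 failed the detection filter. Alternatives covered background correction, normalization, the authors' values, filters, spread estimates, arrays in the fit, a replicate block and left-out arrays.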

Additional observations from a re-analysis of the deposited data

How the results depend on the processing

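The call count of 0 between CS_Los and RA_Los held in 28 of the 29 alternative settings, with 413 to 1222 features at an unadjusted p under 0.05 by limma and smallest adjusted p-values from 0.0332 to 1. With all 20 arrays and batch in the fit the count was 1, Lima1 (-0.98, adjusted p = 0.0332). The interaction kept a count of 0 in every setting run. With an array left out the call counts stayed 0 in both contrasts (0 to 0), while the share of batch 2 smoke genes of the same sign ranged from 33.1% (without CS_Los 1) to 84.9% (without CS_Los 2). It was 60.9% to 63.4% in the other settings in which it was computed (those of background correction, normalization, the authors' values and the detection filters). With the replicate number as a replicate block 0 features were called (638 at an unadjusted p under 0.05, smallest adjusted p 0.828), and no call changed. The slide as a block was not run, as the headers give no slide. In other settings the difference turned for Hspb1 (0.001 without background correction, 0.001 with an offset of 50, 0.015 with 75th percentile centring, 0.097 on the authors' values, 0.176 with array weights), Lrrn4 (-0.032 with percentile centring, -0.002 with cyclic loess, -0.14 with array weights), Irgm1 (0.07 on the authors' values) and Aoc1 (-0.052 with array weights). The cause was not tested. Of 116 named genes, 33 turned when 1 array was left out, and their log2 differences ranged as follows: Agtr1b -0.05 to 0.13, Angptl4 -0.73 to 0.32, Aoc1 -0.19 to 0.29, Bcan -0.10 to 0.28, Bpifb1 -0.71 to 2.16, Cirbp -0.26 to 0.99, Csrp3 -1.05 to 2.40, Cxcl5 -0.62 to 0.90, Cyp1a1 -0.33 to 1.52, Cyp1b1 -0.28 to 0.38, Dnajb1 -0.84 to 0.075, Emp2 -0.067 to 0.073, Fam107a -0.34 to 0.74, Hba-a1 -0.32 to 1.43, Hmox1 -0.28 to 0.42, Hspa1a -1.96 to 0.28, Hspb1 -0.95 to 0.66, Hsph1 -1.55 to 0.26, Il4i1 -0.061 to 0.78, Itgb3 -0.27 to 0.064, Lrrn4 -0.39 to 0.60, Mmp12 -0.28 to 0.024, Npas2 -0.11 to 0.76, Nqo1 -0.37 to 0.059, Nr1d1 -0.68 to 0.45, Per1 -1.60 to 0.23, Retnla -0.17 to 0.86, Saa3 -0.25 to 0.83, Slc4a1 -1.04 to 0.18, Stip1 -0.40 to 0.60, Tff2 -1.63 to 0.086, Tgfb2 -0.60 to 0.006 and Tsc22d3 -0.87 to 0.10. These gene counts cover the 116 genes chosen by rule. Genes added after seeing the values, S100a8 and Clec9a among them, were not counted. With 3 arrays a group the median standard error was 0.198. Far larger differences were not called either, such as that of Mpp5 (-1.05 ± 0.177, adjusted p = 0.624 by limma). The count of 0 therefore does not show that large differences were absent. A fit without 1 array rests on 2 in that group.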
